A study of Homo sapiens with 6 samples.

Results

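The genes described here are the collagens, laminins and matrix proteins measured in HT1080 cells. They are the rows of the deposited count table whose gene name is a collagen chain, a laminin chain, LOX or LOXL1 to LOXL4, FN1, FBN1, FBN2, a fibulin, SPARC, TGFBI, a thrombospondin, TNC, POSTN, a prolyl 4-hydroxylase alpha subunit or a lysyl hydroxylase, and whose mean over the 6 libraries was at least 1 CPM (its count scaled to 1e6 counts per library). Of 60675 rows, 82 carried such a name and 52 reached that level. Members were thus chosen by name and by the level over all libraries, so the presence of these genes is no result. The comparison of the compounds was not part of that rule, but the list was chosen with earlier results of these data known. HT1080 is an established human fibrosarcoma line, given as wild type and as connective tissue in the labels. The SW-138 group had 3 libraries from cells given SW-138 at 1 µM for 48 h, and the SW-113 group had 3 libraries from cells given SW-113 at the same dose and time. Both were compared as inhibitors in an evaluation of selectivity for HDAC6, a mainly cytoplasmic lysine deacetylase also called KDAC6. No untreated or vehicle library was analysed here, so each difference is between the compounds, and a higher level with SW-138 cannot be told apart from a lower level with SW-113. Nothing in the labels says that the 3 libraries of a compound came from separate cultures, so the p-values measure only the spread between these libraries.

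The extracellular matrix is built from secreted proteins that assemble outside the cell. Fibrillar collagens form the fibres of connective tissue, type IV collagen and the laminins form the sheets of basement membranes, and type VI collagen forms beaded filaments between them. Collagen chains are hydroxylated in the endoplasmic reticulum by prolyl and lysyl hydroxylases, folded into triple helices, and after secretion cross-linked by lysyl oxidases. Matricellular proteins such as the thrombospondins, SPARC and tenascin bind this scaffold and cell-surface receptors without being a main part of the structure. HT1080 cells have long served as a model of tumour cell migration through matrix.

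Library totals lay between 32771670 and 50871623 counts. Correlations between libraries of log2 CPM over all tested genes lay between 0.988 and 0.993 within a compound and between 0.986 and 0.991 across compounds. On the first principal component SW-138 replicate 2 lay at 39.1 and the other 5 libraries between -24.1 and 5.88. Small stable noncoding RNAs took 5.95% to 8.05% of counts in SW-138 libraries and 8.60% to 9.72% in SW-113 libraries. With the mitochondrial and stable noncoding genes left out, the calls among the 52 genes were again LOX, LOXL3 and TGFBI and their median log2 fold change was 0.14. Of 10 mesenchymal and fibrosarcoma markers, 7 had a mean of at least 1 CPM, VIM (vimentin) among them. The summed level of the 10 was 7067 to 7715 CPM in SW-138 libraries and 6581 to 7214 CPM in SW-113 libraries. Of the 9 tested, 0 passed in the main edgeR fit, and DESeq2 called PDGFRB higher with SW-138. Before adjustment 4 of the 9 had an edgeR quasi-likelihood p under 0.05 in the higher direction and 0 in the lower. Of all tested genes 10% and 12.3% had. THY1, NT5E and S100A4 were below 1 CPM. Of the markers of other cell types, 1 of 10 epithelial, 1 of 8 endothelial (TIE1), 2 of 10 leukocyte (CD68 and CSF1R) and 1 of 8 muscle genes reached 1 CPM, and PTPRC, the common leukocyte antigen, was at 0.01 CPM. The summed levels of these lists in SW-138 and SW-113 libraries were 2.93 to 3.69 and 2.43 to 3.41 CPM for the epithelial list, 89.5 to 124 and 87.1 to 105 CPM for the endothelial list, 76.8 to 95.03 and 91.5 to 97.6 CPM for the leukocyte list, and 3.36 to 4.48 and 3.40 to 4.11 CPM for the muscle list. Their part in the results was not tested.

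HT1080 cells expressed a matrix programme led by type VI collagen, fibronectin and laminins, with little type I and type III collagen. Together the 52 genes took 1.11% ± 0.156 of all counts with SW-138 and 0.992% ± 0.104 with SW-113 (SD, n = 3 each). By library the share was 1.25%, 0.941% and 1.14% with SW-138 and 1.09%, 0.882% and 1.01% with SW-113, so the groups overlapped. In bulk RNA fewer cells that express a gene and less RNA per cell cannot be told apart. Levels between genes are compared here per length, as CPM per kilobase of the longest basic transcript, which depends on the transcript a cell uses. COL6A3, the long chain of type VI collagen, led at 286 CPM per kilobase. PLOD2, a lysyl hydroxylase of collagen telopeptides, followed at 141, FN1 (fibronectin) at 137, SPARC, a collagen-binding glycoprotein, at 132, LAMB3, the beta-3 laminin chain, at 121 and LOXL2, a lysyl oxidase, at 112 CPM per kilobase. LAMB1 and LAMC1, the beta-1 and gamma-1 laminin chains, were at 74.1 and 71.8, THBS1 (thrombospondin 1) at 63.3 and COL6A2 at 54.2 CPM per kilobase. These 10 genes held 75.2% of the counts of the 52, and COL6A3 alone held 29.2%. Above 10 CPM per kilobase stood 25 of the 52 genes, and 15 were below 1.

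**Figure D1:**
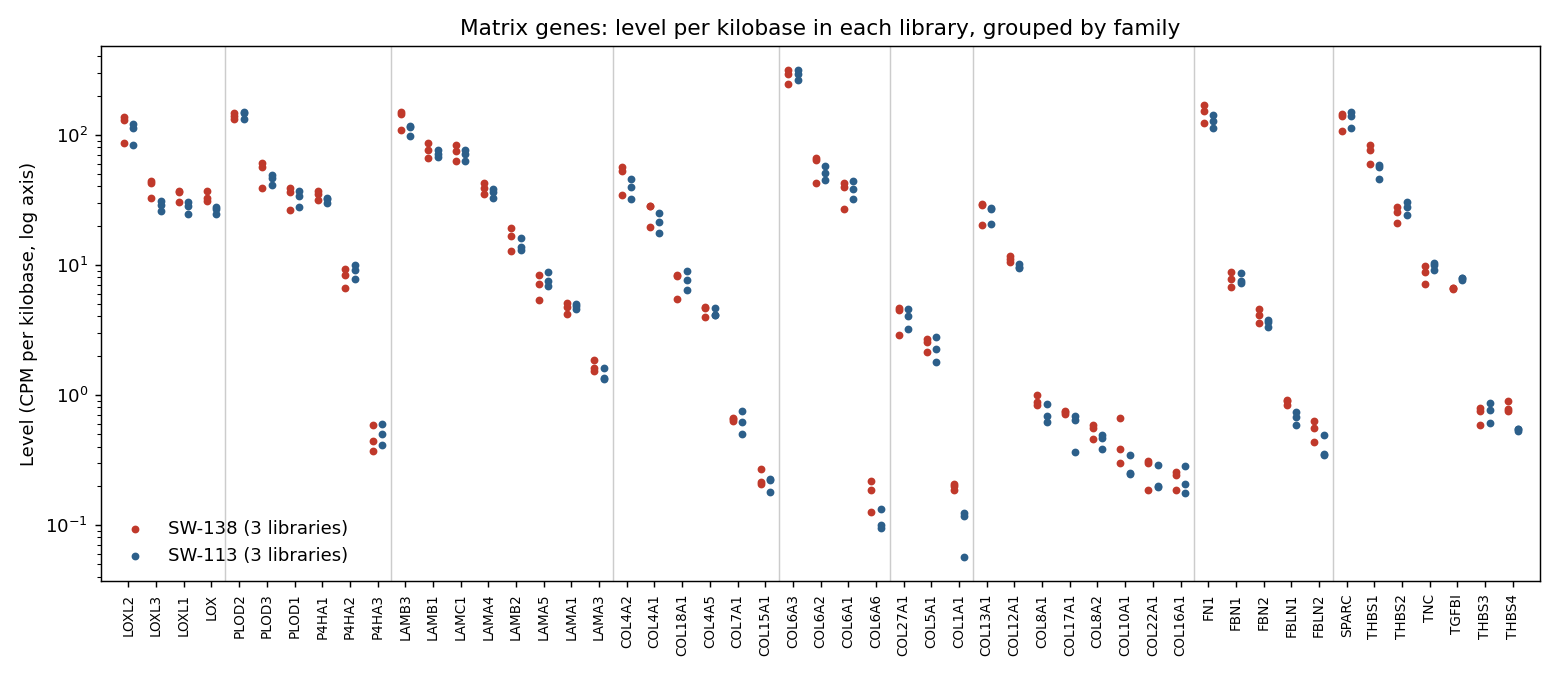
Levels of 51 of the 52 matrix genes in each library, by family, in CPM per kilobase on a log axis, with SW-138 and SW-113 libraries as separate points. COL6A3 stands highest in its family and over all genes, at a mean of 286 CPM per kilobase, and within most genes the points of the compounds lie close together.

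The type I and type III fibrillar collagens, the bulk of ordinary connective tissue, were near or under the limit of 1 CPM. COL1A1, the main chain of type I collagen, was just inside it at a mean of 1.00 CPM, next to P4HA3, an alpha subunit of prolyl 4-hydroxylase, at 1.10 CPM. Just outside were COL5A2, a type V chain, at 0.908 CPM and FBLN7, a fibulin, at 0.689 CPM, followed by COL4A6, LAMA2 and COL4A4 at 0.559, 0.535 and 0.5001 CPM. COL1A2, COL3A1 and POSTN (periostin) were at 0.0855, 0.00425 and 0.0418 CPM. Of the 30 genes under the limit, 9 were abundant enough to be tested, and 13 had no count in at least 1 library. A gene near the limit can pass it through the group where it is higher. COL1A1 and COL10A1 had a mean under 1 CPM in SW-113 libraries, and no member did in SW-138 libraries.

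All 52 genes could be tested, and 49 of them did not pass the test between the compounds. Lysyl oxidase LOX and its relative LOXL3 were higher with SW-138, by 1.28-fold and 1.39-fold, and TGFBI, a secreted protein that binds collagens and integrins, was 1.18-fold lower with SW-138. These 3 of the 52 genes were the only ones with an adjusted p under 0.05 by edgeR's quasi-likelihood test with Benjamini-Hochberg adjustment over 16905 genes. Of all tested genes 6.82% were called. Higher calls were thus 2 of 52, or 3.85%, against 2.76% of all tested genes, and lower calls 1 of 52, or 1.92%, against 4.06%. Both shares are near those of all genes, so the number of calls in this fit is no result about matrix genes. Over all tested genes 466 were called higher and 687 lower, so that 40.4% of calls were higher, and scaling by total count alone turned it to 71.0% higher. The same scaling called 6 of the 52 higher and 0 lower, where 5.46% and 2.23% of all tested genes were called. By limma-voom the calls were LOX, LOXL3 and TGFBI again, and by edgeR with robust estimation LOX, COL12A1 and TGFBI. DESeq2 called LOX, LOXL1, LOXL3, LAMB3 and COL12A1 higher and 0 lower, where it called 3.68% of all tested genes higher and 4.41% lower.

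Most of the 52 estimates were small and positive. The log2 fold change, SW-138 minus SW-113, was above 0 for 38 genes and below 0 for 14, or 73.1% positive against 51.5% of all tested genes, and 45 of the 52 were above 0 with scaling by total count alone. Its median was 0.14 over the 52, against 0.01 over all tested genes, and it ran between -0.24 for TGFBI and 1.01 for COL1A1. Before adjustment 12 of the 52 had an edgeR p under 0.05 in the higher direction and 1 in the lower, where 10% and 12.3% of all tested genes had. The libraries of the compounds did not overlap for 8 genes that were higher with SW-138, or 15.4% of the 52 against 12.4% of all tested genes. They did not overlap for 1 gene that was lower, or 1.92% against 15.4%. COL1A1 and COL10A1, with a SW-113 mean under 1 CPM, reached the limit through their SW-138 libraries. Both are counted among the 38 positive estimates, and COL1A1 also among the 12 and the 8. For 36 of the 52, the 95% interval of the difference lay within a 1.5-fold change either way, and for 39 it included 0. Members were long, with a median transcript of 5697 bases against 2997 over all tested genes. Across genes, which are not independent replicates, the Spearman correlation of log2 fold change with length was -0.04 over the 52 and 0.18 over all tested genes. With length and GC trends removed, the median over the 52 was 0.12. In that fit 3 of them were called higher (5.77%) and 1 lower (1.92%), against 3.21% and 3.61% of all tested genes.

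**Figure D2:**
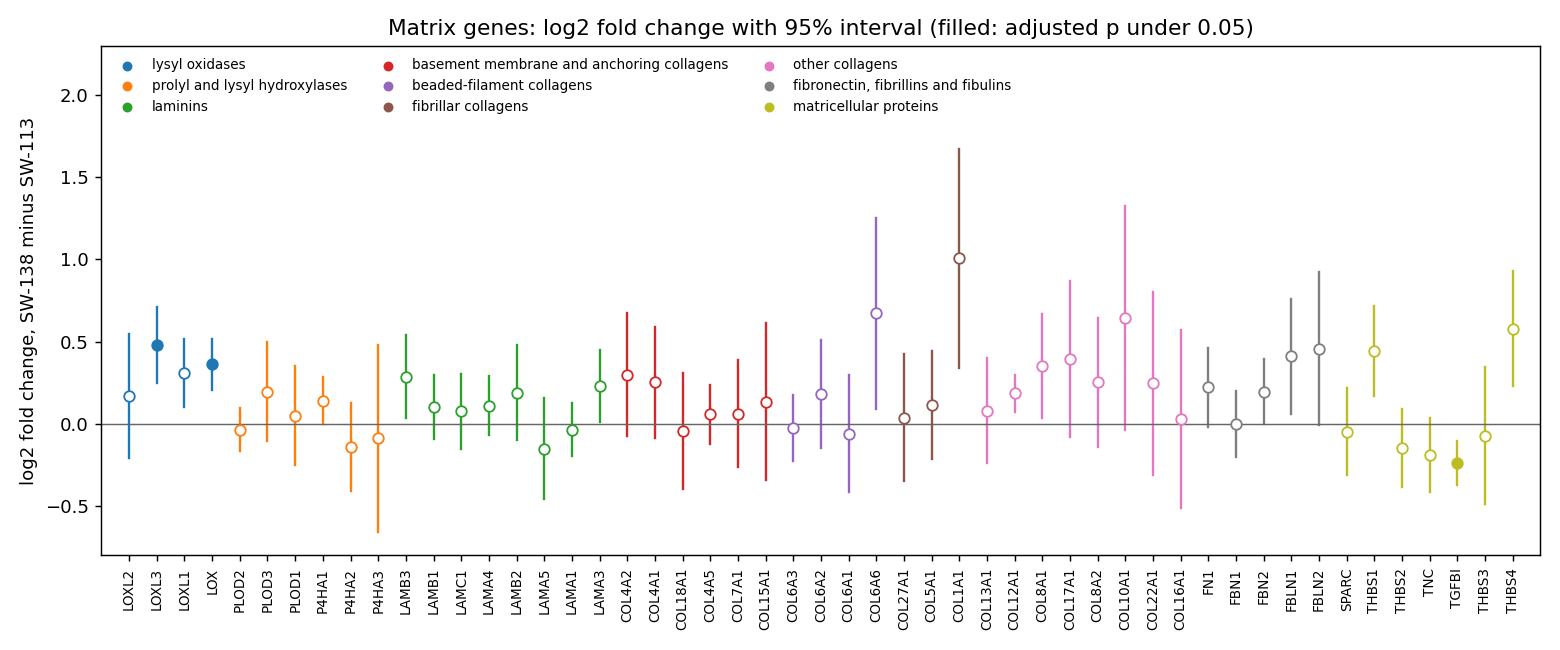
Log2 fold change of 51 of the 52 matrix genes, SW-138 minus SW-113, with its 95% interval, with colours by family. Filled points mark LOX, LOXL3 and TGFBI, the genes with an adjusted p under 0.05; 39 of the 52 intervals of all members include 0.

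Sequences around a RefSeq start site are shown for LOX, LOXL3 and TGFBI, the 3 called genes. COL4A1 is shown for the divergent pair COL4A1 and COL4A2, which is read from a common start region. Each is a RefSeq window in GRCh38.p14 that runs 5′ to 3′ along the gene's strand, with 250 bases before the start and 50 after it. Capitals mark matches on either strand to any of 6 short motifs, and no match overlapped another in the windows shown. The TATA box was searched as TATAAA. The GC box, bound by Sp1 and its relatives, was searched as GGGCGG. The CAAT box was searched as CCAAT and the AP-1 site, with any base in the middle, as TGANTCA. The core of the hypoxia response element was searched as ACGTG and the TEAD core as GGAATG. The LOX window is chr5:122078210-122078509, minus strand, the nearest of 3 windows to the GENCODE start and 101 bases from it.
LOX: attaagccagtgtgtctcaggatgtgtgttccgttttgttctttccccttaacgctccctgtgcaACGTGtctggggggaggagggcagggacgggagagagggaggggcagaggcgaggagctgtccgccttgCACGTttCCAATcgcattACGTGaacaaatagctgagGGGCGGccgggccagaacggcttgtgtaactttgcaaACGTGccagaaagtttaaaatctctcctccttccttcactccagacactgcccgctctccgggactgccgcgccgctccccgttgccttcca
The LOXL3 window is chr2:74553893-74554192, minus strand, the nearer of LOXL3's RefSeq windows. Its start site lies 1748 bases downstream of the GENCODE start, so the window is inside the annotated gene.
LOXL3: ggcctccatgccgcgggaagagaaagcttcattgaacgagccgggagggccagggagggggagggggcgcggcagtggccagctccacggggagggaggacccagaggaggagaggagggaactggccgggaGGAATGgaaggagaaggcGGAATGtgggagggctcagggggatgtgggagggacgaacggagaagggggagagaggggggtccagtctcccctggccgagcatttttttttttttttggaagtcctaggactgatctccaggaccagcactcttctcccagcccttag
The TGFBI window is chr5:136028738-136029037, plus strand.
TGFBI: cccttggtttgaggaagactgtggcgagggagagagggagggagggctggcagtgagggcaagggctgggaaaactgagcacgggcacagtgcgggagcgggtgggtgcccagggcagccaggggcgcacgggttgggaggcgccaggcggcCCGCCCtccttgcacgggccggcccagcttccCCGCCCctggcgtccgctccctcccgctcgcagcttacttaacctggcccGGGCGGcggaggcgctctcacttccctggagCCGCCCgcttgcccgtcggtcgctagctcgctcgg
The COL4A1 window is chr13:110307108-110307407, minus strand.
COL4A1: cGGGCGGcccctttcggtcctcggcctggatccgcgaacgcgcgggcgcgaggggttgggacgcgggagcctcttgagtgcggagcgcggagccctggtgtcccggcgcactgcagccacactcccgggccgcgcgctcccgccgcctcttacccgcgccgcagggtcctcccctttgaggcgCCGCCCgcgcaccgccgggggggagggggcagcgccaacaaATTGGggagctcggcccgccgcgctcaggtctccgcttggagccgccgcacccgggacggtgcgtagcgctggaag
The LOX window held 4 matches to ACGTG, where 21.4% of 35116 RefSeq windows held at least 1 and 0.843% held 4 or more. It also held 1 GGGCGG and 1 CCAAT. The LOXL3 window held 2 matches to GGAATG, where 14.0% of windows held at least 1 and 1.37% held 2 or more. In the TGFBI window there were 4 to GGGCGG, where 45.0% held at least 1 and 9.06% held 4 or more. The COL4A1 window held 2 matches to GGGCGG, where 26.7% of windows held 2 or more. It also held 1 CCAAT, where 34.6% held at least 1. Of the 52 genes, 44 had a window. Among these, GGGCGG was found in 31, CCAAT in 11, ACGTG in 10, TATAAA and GGAATG in 8 each and TGANTCA in 2, where TATAAA and TGANTCA are in 11.5% and 7.71% of all windows. A match is a string of letters and no evidence of binding.

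The lysyl oxidases, copper enzymes that oxidise lysines of collagen and elastin so that chains cross-link, held both higher calls. LOX (ENSG00000113083, chromosome 5, 122063195 to 122078360, GRCh38, minus strand) measured 189, 159 and 167 CPM in SW-138 libraries and 141, 124 and 136 CPM in SW-113 libraries. Every SW-138 library was above every SW-113 library. The means were 172 ± 15.4 and 134 ± 8.48 CPM (SD, n = 3 each), a log2 fold change of 0.36 ± 0.07 (SE), with an edgeR quasi-likelihood adjusted p of 0.0171. LOXL3 (ENSG00000115318, chromosome 2, 74532414 to 74555690, minus strand) measured 153, 115 and 149.5 CPM with SW-138 and 108, 90.5 and 101 CPM with SW-113. Again the groups did not overlap, although SW-138 replicate 2 lay close to the highest SW-113 library. Its log2 fold change was 0.48 ± 0.10 with an edgeR quasi-likelihood adjusted p of 0.0228.

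LOXL1, which acts mainly on elastin, measured 86.6, 71.2 and 85.2 CPM with SW-138 and 71.9, 57.8 and 66.8 CPM with SW-113. SW-138 replicate 2 lay just below SW-113 replicate 1, and the log2 fold change of 0.31 ± 0.09 did not pass (edgeR quasi-likelihood, adjusted p = 0.0750). LOXL1 was called higher in 9 of 22 alternative settings. Among these were total count alone, DESeq2, length and GC trends removed, and the fit without SW-138 replicate 2. LOXL2, the highest of the family per length, measured 489, 309 and 461 CPM with SW-138 and 428.5, 294 and 397 CPM with SW-113. These groups overlapped widely, and the 95% interval of its log2 fold change of 0.17 ran between -0.21 and 0.55. LOXL2 was called higher only in the 2 fits with a block on replicate number. LOXL4 did not reach the limit of 1 CPM. The 4 enzymes lay between 29.9 and 112 CPM per kilobase. All 4 estimates were positive under each scaling run, with a median of 0.33 on the log2 scale.

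The calls in this family depended on which libraries entered the fit. LOX passed in 3 of the 6 fits that left out 1 library, with a log2 fold change between 0.29 and 0.41. It did not pass without SW-113 replicate 2, SW-113 replicate 3 or SW-138 replicate 1. LOXL3 passed in 1 of 6, without SW-138 replicate 2, with estimates between 0.40 and 0.60. It also had an adjusted p of 0.0769 by edgeR with robust estimation. Both genes overlap other genes on the opposite strand, and the strand setting of the counting was not given in the sources used here. SRFBP1, opposite LOX, had a log2 fold change of 0.17 and an edgeR quasi-likelihood adjusted p of 0.252. DOK1 and HTRA2, opposite LOXL3, had log2 fold changes of 0.12 and -0.19. Opposite-strand genes are annotated over 30 of the 52 members, and for 17 such a gene was itself tested.

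**Figure D3:**
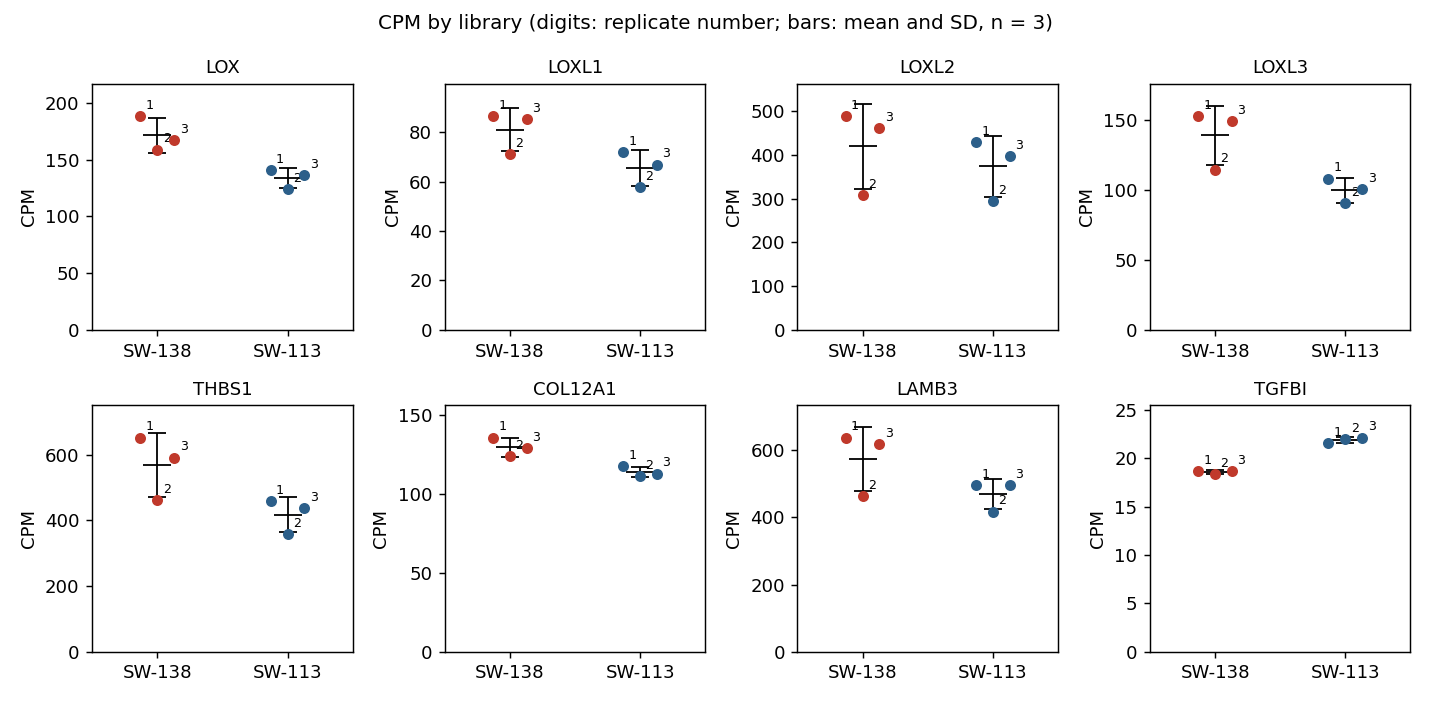
CPM in each library of LOX, LOXL1, LOXL2, LOXL3, THBS1, COL12A1, LAMB3 and TGFBI on axes that start at 0, with SW-138 libraries at the left of each panel and SW-113 libraries at the right, each point marked with its replicate number. Lines are the group mean and SD (n = 3). In LOX, LOXL3 and TGFBI the groups do not overlap, nor in THBS1 and COL12A1, which were not called in the main fit. In LOXL1, LAMB3 and LOXL2 they do, in LOXL2 at 309 to 489 CPM with SW-138 and 294 to 428.5 CPM with SW-113.

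TGFBI (ENSG00000120708, chromosome 5, 136028895 to 136063818, plus strand), named for its induction by TGF-beta, was the single member called lower. It measured 18.7, 18.3 and 18.7 CPM with SW-138 and 21.6, 22.0 and 22.2 CPM with SW-113. The groups did not overlap and each was tight, at 18.6 ± 0.209 and 21.9 ± 0.315 CPM (SD, n = 3 each). The log2 fold change was -0.24 ± 0.06 (edgeR quasi-likelihood, adjusted p = 0.0385). It passed in 0 of the 6 fits with 1 library left out, although the estimate stayed between -0.25 and -0.23. It was also lost with scaling by total count, at -0.17, and with DESeq2, where the adjusted p was 0.0660. No annotated gene overlaps it on the opposite strand.

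Other matricellular proteins had estimates of either sign, and 0 of them passed in the main edgeR fit or by DESeq2. THBS1 and THBS4 were called higher with total count alone, protein-coding genes alone and a block on replicate number. THBS2 was called lower with that block, and TNC with a filter of 1 count in 1 library. THBS1, a large adhesive glycoprotein that can activate latent TGF-beta, measured 652, 460.4 and 591 CPM with SW-138 and 458, 357 and 437 CPM with SW-113. SW-138 replicate 2 and SW-113 replicate 1 nearly met but the groups did not overlap, and the log2 fold change was 0.44 ± 0.12 (edgeR quasi-likelihood, adjusted p = 0.0598). THBS4, a relative found in muscle and tendon, measured 2.42, 2.87 and 2.498 CPM with SW-138 and 1.77, 1.69 and 1.75 CPM with SW-113. Its log2 fold change of 0.58 ± 0.16 was among the larger estimates and did not pass (edgeR quasi-likelihood, adjusted p = 0.0592). SPARC measured 530.1, 395 and 513 CPM with SW-138 and 552, 419 and 518 CPM with SW-113, or a log2 fold change of -0.05 with a 95% interval between -0.32 and 0.21. THBS2, THBS3 and TNC (tenascin C) had estimates of -0.15, -0.07 and -0.19. Of the 7 members of this family 5 had a negative estimate, or 4 with scaling by total count alone, which turned SPARC.

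Laminins are trimers of an alpha, a beta and a gamma chain, and 9 chains were present. In the main edgeR fit 0 of the 9 passed and 2 had an unadjusted p under 0.05, both higher, while DESeq2 called LAMB3 higher. Estimates were positive for 7 of the 9, or 8 with scaling by total count alone, which turned LAMA1, and their median log2 fold change was 0.11. LAMB3, a chain of the laminin of epithelial attachment, measured 638.5, 463.5 and 618 CPM with SW-138 and 496, 417.5 and 498 CPM with SW-113. SW-138 replicate 2 lay inside the SW-113 range, and the log2 fold change was 0.29 ± 0.11 (edgeR quasi-likelihood, adjusted p = 0.168). LAMB1 measured 501, 382 and 443 CPM with SW-138 and 441, 387.5 and 407 CPM with SW-113, and LAMC1 662, 491 and 592 CPM with SW-138 and 599.9, 492.5 and 563 CPM with SW-113. For both of these widely expressed chains the SW-138 libraries spanned the SW-113 range, with log2 fold changes of 0.10 and 0.08.

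Ratios of chains per length describe which trimers the transcripts could fill. LAMB1 stood to LAMC1 at 1.04 with SW-138 and 1.02 with SW-113, and LAMA4, the main alpha chain here, stood to LAMC1 at 0.527 and 0.512. LAMA3, an alpha chain that joins LAMB3, was 0.013 of LAMB3 with either compound. LAMA3 is divided by its longest transcript, and a shorter one would raise that ratio. LAMA5 to LAMA4 was 0.178 with SW-138 and 0.215 with SW-113, and LAMA1 to LAMA4 was 0.120 with SW-138 and 0.134 with SW-113. Neither ratio overlapped between the compounds, but LAMA1 to LAMA4 separated narrowly, at most 0.123 with SW-138 and at least 0.125 with SW-113. In all 11 ratios of chains were computed, and they are given without a test. Of the others, only COL6A2 to COL6A1 did not overlap.

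Type IV collagen, the network of basement membranes, came mainly from COL4A1 and COL4A2. COL4A2 measured 343, 225 and 364 CPM with SW-138 and 294, 209 and 255.5 CPM with SW-113, or a log2 fold change of 0.30 ± 0.17. COL4A1 measured 187, 129 and 187 CPM with SW-138 and 166, 116 and 141 CPM with SW-113, or a log2 fold change of 0.25 ± 0.15. SW-138 replicate 2 lay within the range of SW-113 libraries for both chains, and neither passed (edgeR quasi-likelihood, adjusted p = 0.326 and 0.366). The genes are transcribed away from each other on chromosome 13 with start sites 127 bases apart, and their RefSeq windows share 226 bases. Their ratio per length was 1.88 with SW-138 and 1.83 with SW-113. COL4A5, COL7A1, COL15A1 and COL18A1, the other basement membrane and anchoring chains, had estimates between -0.05 and 0.13, and COL18A1, the lowest, turned positive with scaling by total count alone. COL4A4, outside the limit of 1 CPM, had a log2 fold change of 1.23 (edgeR quasi-likelihood, adjusted p = 0.0528).

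Type VI collagen had the highest level per length of the collagens. COL6A3 measured 3362, 2626 and 3137 CPM with SW-138 and 3358, 2811 and 3126 CPM with SW-113. The groups lay on top of each other, and the 95% interval of its log2 fold change of -0.03 ran between -0.23 and 0.17. COL6A2 measured 222, 147 and 228 CPM with SW-138 and 197, 154 and 176 CPM with SW-113 (log2 fold change 0.18), and COL6A1 179, 113 and 169 CPM with SW-138 and 186, 135 and 161 CPM with SW-113 (log2 fold change -0.06). Neither chain passed, and with scaling by total count alone COL6A1 and COL6A3 turned positive. Their ratio per length did not overlap between the compounds: COL6A2 stood to COL6A1 at 1.59 ± 0.0671 with SW-138 and 1.34 ± 0.0493 with SW-113 (SD, n = 3 each). COL6A3 was 7.96 times COL6A1 per length with SW-138 and 7.66 times with SW-113. COL6A6, a rare chain, measured 1.20, 2.10 and 1.77 CPM with SW-138 and 0.961, 1.27 and 0.909 CPM with SW-113, or a log2 fold change of 0.67 ± 0.26 that did not pass (edgeR quasi-likelihood, adjusted p = 0.160).

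Of the fibrillar collagens, COL27A1 was highest per length, with 34.9, 22.5 and 36.3 CPM with SW-138 and 35.8, 24.8 and 31.2 CPM with SW-113. Its groups overlapped, with a log2 fold change of 0.04. COL1A1 measured 1.39, 1.33 and 1.25 CPM with SW-138 and 0.831, 0.383 and 0.787 CPM with SW-113. The groups did not overlap, and this was the largest estimate of the 52, at 1.01 ± 0.30 on the log2 scale, but it did not pass (edgeR quasi-likelihood, adjusted p = 0.0801). The mean of COL1A1 was 0.667 CPM in SW-113 libraries, so it reached the limit of 1 CPM only through its SW-138 libraries. The size and separation of COL1A1 are thus given as a description only. COL5A1 had an estimate of 0.11.

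Estimates of the 8 other collagens were all positive under each scaling run, between 0.03 and 0.65 in the main one. In the main edgeR fit 0 of these collagens passed and 2 had an unadjusted p under 0.05. COL13A1, a transmembrane collagen and the highest of them per length, measured 91.9, 64.7 and 93.5 CPM with SW-138 and 86.9, 65.1 and 85.2 CPM with SW-113, with a log2 fold change of 0.08. COL12A1, which coats fibrils, measured 136, 124 and 129 CPM with SW-138 and 118, 112 and 113 CPM with SW-113. All SW-138 libraries were higher, by a log2 fold change of 0.18 ± 0.05 (edgeR quasi-likelihood, adjusted p = 0.0635). COL10A1, known from growth plate cartilage, measured 1.05, 2.31 and 1.33 CPM with SW-138 and 0.883, 1.21 and 0.860 CPM with SW-113, or a log2 fold change of 0.65 ± 0.31 (edgeR quasi-likelihood, adjusted p = 0.256). The mean of COL10A1 was 0.985 CPM in SW-113 libraries, so it reached the limit of 1 CPM through its SW-138 libraries. COL17A1, at 4.05, 4.23 and 4.26 CPM with SW-138 and 3.90, 2.08 and 3.64 CPM with SW-113, also did not overlap, and SW-113 replicate 2 stood well below its group.

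Fibronectin measured 1504, 1099.6 and 1346 CPM with SW-138 and 1257.5, 1004 and 1125 CPM with SW-113. SW-138 replicate 2 lay inside the SW-113 range, and the log2 fold change was 0.22 ± 0.11 (edgeR quasi-likelihood, adjusted p = 0.273). FBN1 and FBN2, the fibrillins of microfibrils, had log2 fold changes of -0.00 and 0.19. FBLN2, a fibulin, measured 2.71, 1.86 and 2.39 CPM with SW-138 and 2.13, 1.51 and 1.47 CPM with SW-113, or a log2 fold change of 0.45 ± 0.21 (edgeR quasi-likelihood, adjusted p = 0.246). FBLN1 measured 2.64, 2.43 and 2.61 CPM with SW-138 and 2.13, 1.96 and 1.70 CPM with SW-113, without overlap, and its log2 fold change of 0.41 did not pass (edgeR quasi-likelihood, adjusted p = 0.168).

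The hydroxylases that prepare collagen chains for folding and cross-linking had 0 calls in the main edgeR fit or by DESeq2. In the main edgeR fit 0 had an unadjusted p under 0.05. PLOD3 was called higher with a filter of 1 count in 1 library and without SW-138 replicate 2. With a block on replicate number and length and GC trends removed, PLOD3 and P4HA1 were called higher. PLOD2 measured 548, 496 and 518 CPM with SW-138 and 560.4, 496 and 546 CPM with SW-113. The groups overlapped, and the 95% interval of its log2 fold change of -0.04 ran between -0.17 and 0.09. PLOD1 and PLOD3 had estimates of 0.05 and 0.19, and P4HA1, P4HA2 and P4HA3 had 0.14, -0.14 and -0.09. The median over the 6 was 0.01.

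Within each compound the libraries numbered 2 were low in matrix genes. SW-138 replicate 2 was the lowest library of its group for 43 of the 52 genes (82.7%), against 34.8% of all tested genes, and SW-113 replicate 2 for 42 (80.8%), against 36.4%. For 36 genes (69.2%) replicate 2 was lowest with both compounds, against 17.8% of all tested genes. These shares are a description, since all genes were measured in the same 6 libraries. The median deviation of the 52 genes from their mean over the 6 libraries was 0.21, -0.14 and 0.15 on the log2 scale with SW-138 and 0.09, -0.22 and -0.05 with SW-113. Libraries of 1 compound thus lay further apart than 0.14, the median difference between the compounds. Without SW-138 replicate 2, 13 of the 52 genes passed in the higher direction and 0 in the lower, or 25% and 0%, against 4.67% and 4.72% of all genes tested in that fit. The 13 were LOX, LOXL1, LOXL3, LAMB2, LAMB3, COL4A1, COL4A2, COL6A2, COL12A1, FN1, FBN2, THBS1 and PLOD3. The library left out was the lowest of its group for most of the 52, so leaving it out raises their SW-138 means. SW-113 replicate 2, also low in its group, stayed in that fit. The 13 calls are thus no separate result about matrix genes. Leaving out any other single library left 0 or 1 higher and 0 lower. What sets the replicate 2 libraries apart was not tested.

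**Figure D4:**
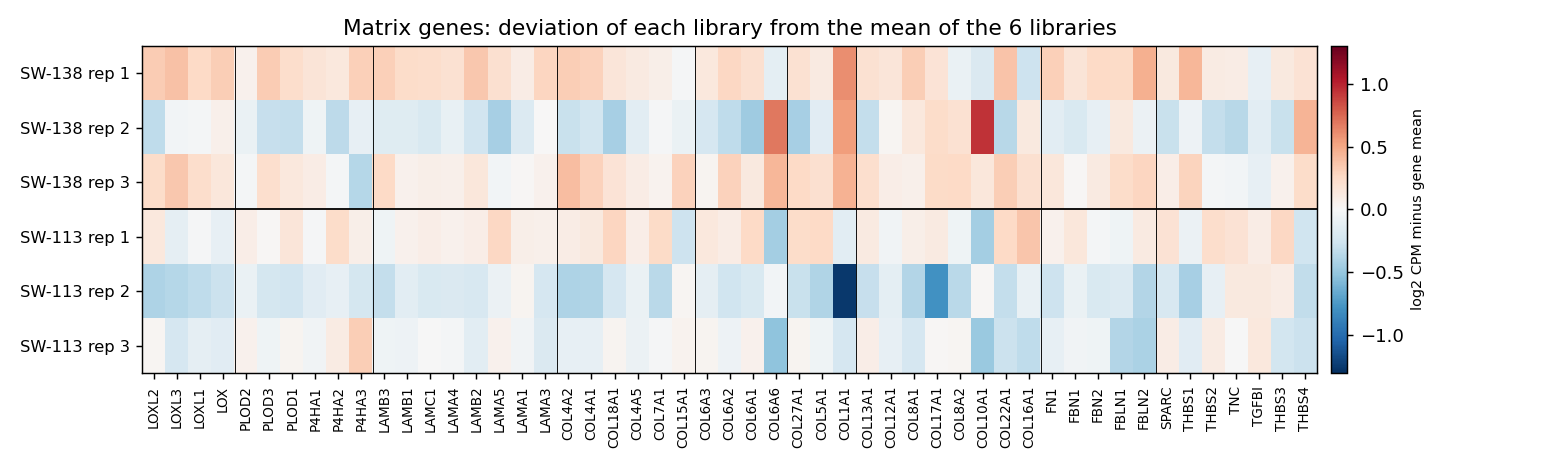
Deviation of 51 of the 52 matrix genes from their mean over the 6 libraries, on the log2 scale, in colour, with genes along the bottom by family and the SW-138 libraries in the rows above those of SW-113. Over all 52 genes, replicate 2 is the lowest library of its compound for 43 with SW-138 and 42 with SW-113.

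Genes that work with these proteins were counted in 6 further lists, to be read against the 2.76% of all tested genes called higher and 4.06% called lower. The collagen folding and processing list (chaperones, prolyl isomerases and procollagen proteinases) had 23 tested genes. Of these 0 passed in either direction in the main edgeR fit or by DESeq2, and 2 had an unadjusted edgeR p under 0.05, both higher. The elastic fibre and microfibril list had 12 tested genes, of which 0 passed in the main edgeR fit or by DESeq2. In that list 1 gene in each direction had an unadjusted edgeR p under 0.05. Among 17 tested proteoglycans 1 was higher, SRGN (serglycin), and 1 lower, GPC6, a glypican. Among 12 basement membrane linkers and laminin partners, LAMA1 included, 1 was higher, SMOC1, a calcium-binding basement membrane protein, and 0 lower. Of 13 further matricellular genes 2 were higher, IGFBP7 and ECM1, and 1 lower, CCN3 (NOV in the table). Of 11 hyaluronan genes 1 was higher, CEMIP, which takes part in hyaluronan breakdown, and 1 lower, HYAL2, a hyaluronidase. Beyond these, DESeq2 called the proteoglycan CSPG4 and the hyaluronan receptor HMMR higher and the matricellular SPP1 (osteopontin) lower, and edgeR with robust estimation also called SPP1 lower.

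CEMIP showed the widest separation of these. It measured 237, 166.5 and 219 CPM with SW-138 and 103, 95.6 and 78.9 CPM with SW-113, so that every SW-138 library was well above every SW-113 library. The log2 fold change was 1.17 ± 0.13 (edgeR quasi-likelihood, adjusted p = 0.00159). HYAL2 measured 18.8, 22.2 and 21.0 CPM with SW-138 and 24.9, 25.3 and 24.5 CPM with SW-113, or a log2 fold change of -0.27 ± 0.07 (edgeR quasi-likelihood, adjusted p = 0.0489). SMOC1 measured 7.91, 7.13 and 8.01 CPM with SW-138 and 4.99, 4.44 and 4.18 CPM with SW-113, or a log2 fold change of 0.76 ± 0.11 (edgeR quasi-likelihood, adjusted p = 0.00390). ECM1, a secreted glycoprotein, measured 10.9, 7.66 and 10.6 CPM with SW-138 and 6.70, 4.70 and 5.56 CPM with SW-113. Its log2 fold change was 0.79 ± 0.16 (edgeR quasi-likelihood, adjusted p = 0.0165), and the groups did not overlap.

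SRGN and IGFBP7 were also higher with SW-138, and GPC6 and CCN3 lower. SRGN measured 184, 179 and 192 CPM with SW-138 and 143, 153 and 155 CPM with SW-113, and IGFBP7 132, 106 and 142 CPM with SW-138 and 103, 88.0 and 97.6 CPM with SW-113. Their log2 fold changes were 0.30 ± 0.05 and 0.39 ± 0.10 (edgeR quasi-likelihood, adjusted p = 0.0105 and 0.0425). GPC6 and CCN3 had log2 fold changes of -0.20 and -0.48 (edgeR quasi-likelihood, adjusted p = 0.0360 and 0.0420). CEMIP and SMOC1 passed in all 6 fits with 1 library left out. SRGN passed in 5, failing without SW-113 replicate 1. ECM1 passed without SW-113 replicate 1 or SW-138 replicate 2 and in no other, IGFBP7 and HYAL2 only without SW-138 replicate 2, and GPC6 and CCN3 in none of the 6. GPC6 and CCN3 also failed with scaling by total count alone, and IGFBP7 with robust estimation. HYAL2 failed with DESeq2 size factors, upper quartile scaling, total count alone, the filter at a mean of 5 CPM, length and GC trends removed, mitochondrial and stable noncoding genes left out, and libraries thinned to the smallest. All of these companions failed against a fold of 1.5.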

How the data were processed

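RNA from HT1080 cells was measured in 6 libraries, 3 for each of SW-138 and SW-113. The authors deposited 1 table of expected counts per gene and library, which are estimates and need not be whole. Per the labels' protocols, total RNA was depleted of ribosomal RNA. Named in the submitters' processing notes are RSEM 1.3.3, Bowtie2 2.5.4, Trimmomatic 0.39, DESeq2 1.42.0 and GRCh38, while annotation and strand handling are not given in the sources used here. RSEM shares reads among similar genes, so values of near-identical copies are uncertain.

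Expected counts were rounded, filterByExpr kept 16905 genes, and SW-138 was set against SW-113 in edgeR 4.0.16 (quasi-likelihood test, TMM scaling, no block). All adjusted p-values are Benjamini-Hochberg values over these genes, read at 0.05. CPM values use TMM-scaled totals, except in the limit of 1 CPM, which uses library totals. Standard errors, and the 95% intervals around edgeR's estimates, came from limma-voom 3.58.1 (R 4.3.3). The median standard error was 0.09 (log2), at a biological coefficient of variation of 7.56%. Coordinates and lengths came from GENCODE release 29 and promoter windows from RefSeq. The fit was also run on simulated counts as a check of the code. These were drawn without a shift shared by the genes of a library, so they do not test the fit under the replicate 2 pattern.

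The members and lists were chosen with earlier results of these data known. Genes given with values were those called, the 10 highest per length, the 5 largest estimates that did not pass, the highest of each family and names within a factor of 2 below the limit. Other members are given to complete a family or because their libraries did not overlap, which was chosen after their values were seen. No pair of libraries agreed within sampling noise, and all 6 were used. The values of 1 member are not reported here, and it is counted in the totals. Alternatives were other scalings, filters and tools, a block on replicate number, length and GC trends removed, thinning, protein-coding genes alone and leaving out each library.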

Additional observations from a re-analysis of the deposited data

How the results depend on the processing

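The median log2 fold change of the members tested stayed positive under every alternative run, between 0.08 and 0.23, while the counts of calls moved. The shares of all tested genes called higher and lower stand beside each count. Higher and lower members were 6 and 0 with total count alone (5.46% and 2.23% of all genes), 10 and 2 with a filter of 1 count in 1 library (3.15% and 3.39%, 2060 genes called), 5 and 0 with DESeq2 (3.68% and 4.41%), 6 and 1 with protein-coding genes alone (4.56% and 5.45%), and 7 and 1 at an adjusted threshold of 0.1 (4.92% and 6.98%, 2012 genes). They were 0 and 0 when tested against a fold of 1.5 (5 genes called). A filter at a mean of 5 CPM kept 38 members, of which 4 were higher and 1 lower (5.12% and 6.41%). Leaving out each library in turn gave 303 to 1616 genes over the whole table, 0 to 13 higher members against 0.858% to 4.67% of all genes, and 0 to 0 lower members against 0.886% to 4.72%, with medians of 0.08 to 0.23. The cause was not tested, except that fewer libraries or genes enter some of these fits.

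The labels do not say whether the replicate numbers pair the libraries, and the main fit used no block. Deviations of same-numbered libraries correlated at 0.05, 0.21 and 0.05, and 2 of 6 libraries correlated best with their own number. These values cannot settle whether libraries were paired. With the replicate block 15 members were higher and 2 lower, or 28.8% and 3.85% against 6.47% and 7.51% of all genes (2363 called). With the block and the length and GC trends removed they were 13 and 4, or 25% and 7.69% against 6.80% and 7.06% (2343 called).

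Estimates near 0 changed sign in places. FBN1 (main estimate -0.00) was 0.0036 with DESeq2 size factors, 0.0051 with upper quartile scaling, 0.061 with total count alone, 0.0057 with the 5 CPM filter, 0.0031 with DESeq2 and 0.0063 with protein-coding genes alone. With total count alone LAMA1 was 0.028, SPARC 0.012, COL6A1 0.00066, PLOD2 0.027, COL6A3 0.037 and COL18A1 0.016. COL27A1 was -0.0051 with the block and trends removed. Thinned to the smallest library, COL16A1 was -0.061, COL7A1 -0.016, P4HA3 0.028, COL15A1 -0.00036 and COL4A6 -0.037. With 1 library left out, signs changed within -0.16 to 0.070 for SPARC, -0.19 to 0.12 for COL6A1, -0.10 to 0.067 for COL6A3, -0.095 to 0.086 for FBN1, -0.20 to 0.041 for THBS3, -0.16 to 0.12 for COL18A1, -0.060 to 0.19 for PLOD1, -0.11 to 0.24 for COL16A1, -0.086 to 0.21 for COL7A1, -0.040 to 0.29 for COL5A1, -0.027 to 0.18 for LAMC1, -0.10 to 0.22 for COL27A1, -0.045 to 0.23 for COL13A1, -0.30 to 0.058 for P4HA3, -0.034 to 0.20 for COL4A6 and -0.098 to 0.036 for LAMA1. Members near 1 CPM rest on few counts, and their intervals are the widest.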
